A study of Capra hircus with 10 samples.

Results

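Circular RNAs (circRNAs) from host genes that encode RNA-binding, splicing, export, decay and translation factors were followed from goat intramuscular preadipocytes (IMPA) to intramuscular adipocytes (IMA). The members were chosen by host gene name, with earlier results of these data known. SLTM was taken in by its full symbol, and the study had already called its circRNA as down in these libraries. The other members have a host gene symbol that begins with a fixed prefix such as HNRNP, RBM, SRSF, DDX, CNOT, PUM, QKI, LARP, EIF, NUP or XPO. The rule gave 45 of the 1327 circRNAs listed, from 33 of the 945 named host genes. The prefix PAN, meant for the PAN deadenylase, also took in the pantothenate kinases PANK1 and PANK2, which make coenzyme A and do not bind RNA as their known function. Without their 3 circRNAs, 42 circRNAs of 31 host genes remained. Prefixes such as SRPK, MBNL, THOC and FXR matched no listed circRNA.

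Both groups were wild-type (WT) cells isolated from the fat within the longissimus dorsi muscle of male Jianzhou goats aged 7 days. IMPA were collected on day 0 and IMA on day 3 after growth medium was exchanged for an inducing medium with oleic acid, and each group had 5 libraries. The cells came from fewer goats than there were libraries in a group, and the goat behind each library was not given. The SDs and p-values below therefore measure the spread between libraries, which may be partly technical. In bulk RNA of this kind, fewer cells of a type and less RNA per cell cannot be told apart.

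A circRNA forms when the splicing machinery joins the end of an exon backwards to the start of the same or an earlier exon. Reads across that back-splice junction come from the circle, and are called junction reads here. Reads that pass the same splice sites in the usual order are taken to come from linear transcripts of the host gene, and are called non-junction reads. Where a longer circle of the same gene spans a splice site, it can give such reads too. Some RNA-binding proteins, QKI among them, are known to promote circle formation by binding the introns that flank an exon. Many of the proteins encoded by these host genes act along the life of an mRNA. The steps run from splicing and 3′ end formation in the nucleus through export to translation, localisation and decay in the cytoplasm. Roles were assigned by name prefix, so a member such as an exportin need not act on mRNA. The measurements below concern circles and linear reads of these genes, not their proteins.

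Junction reads summed to between 11421 and 15553 a library in IMPA and to between 9622 and 12499 in IMA. At the 690 circRNAs with junction reads in all 10 libraries, non-junction reads summed to 177795 to 244354 in IMPA and 128138 to 173047 in IMA. The study also reported a lower share of mapped clean reads in every IMA library than in any IMPA library. This difference follows the groups, and its part in the results below was not tested. Junction counts were low, and 68.8% of all counts above 0 were under 10. The smallest count listed was 2, so a count of 0 means that the circRNA was not listed in that library. The marker genes of the labelled cell types were checked as far as they gave circRNAs. Of 21 adipocyte genes only PLIN2, which coats lipid droplets, had any, and its summed junction level ran from 167 to 365 normalized TPM in the IMPA libraries and from 562 to 900 in the IMA libraries. The defining adipocyte genes PPARG, FABP4 and ADIPOQ gave no listed circRNA, so these tables give no level for them. Preadipocyte and fibroblast genes (4 of 16 with circRNAs) summed to 13687 to 18324 in IMPA and 10015 to 11994 in IMA. Skeletal muscle genes (4 of 21: FHOD3, MYBPC1, MYPN and STAC) summed to 132 to 751 in IMPA and 2059 to 3353 in IMA, and cell cycle genes (7 of 23) to 4233 to 6583 in IMPA and 2491 to 3438 in IMA. The study had called circRNAs of these 4 muscle genes as up in these libraries. It had also called 1 of CEMIP, a gene of the preadipocyte and fibroblast list, as down. These 2 sums are therefore no separate check of the cell types. Non-junction reads did not all follow these sums. At an edgeR adjusted p under 0.01 they rose at 3 and fell at 2 of the 5 preadipocyte and fibroblast circRNAs tested. They changed at 0 of 2 cell cycle circRNAs, and rose at the 1 adipocyte and the 1 muscle circRNA tested. The part of these marker shifts in the results below was not tested.

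Junction reads are counted at a single position, so their levels need no length term. The most abundant member by this measure was the circRNA of SLTM, the SAFB-like transcription modulator, a nuclear protein with an RNA recognition motif. Named circ_0005478, it was listed on the minus strand of chromosome 10 at 51801889 to 51805740, and its 3 listed exons add up to 311 nt. Chromosome numbers here come from the RefSeq gene table by gene ID, and the deposited positions refer to versioned RefSeq chromosome sequences, with the name of the assembly not given in the sources used here. The study listed a primer pair for this circle, but the circle is not among those whose qRT-PCR results the study described. The pair is shown because it marks the member whose junction reads passed the threshold.
circ_0005478 sense primer: gtgcattccaaggagttgct
circ_0005478 antisense primer: ccactcaactcatctgcttcct

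The member circRNAs resembled the rest of the table in structure. Their genomic span ran from 353 bases at PANK1 to 85551 bases at STAU2, with a median of 7918 bases against 8045 for all circRNAs. The median spliced length was 335 nt (102 to 563) against 320 nt for all, and the median number of listed exons 3 against 2. A single exon was listed for 6 members, or 13.3%, against 14.8% of all circRNAs. The listed exons reached both ends of the circle in 36 of 45 members (80.0%) and in 78.3% of the circRNAs with exons listed. In the other 9 members they reached one end only, so the spliced length of these may leave out sequence. This applied to 5 of the 6 single-exon members, among them STAU2 circ_0007343, with 132 nt listed across its 85551 bases.

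Of the host genes, 23 gave 1 member circRNA, 8 gave 2, and STAU2 and EIF3E gave 3 each. Circles of the same gene shared a splice site in 6 host genes. Both LARP1B circles start at 41102485 on chromosome 17, both QKI circles at 86169411 on chromosome 9, and EIF3E circ_0007293 and circ_0007297 at 25897009 on chromosome 14. STAU2 circ_0007341 shares its start, 45082123 on chromosome 14, with circ_0007343 and its end, 45091503, with circ_0007339. Non-junction reads at such pairs overlap and are not separate measurements.

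Together the members held 5613 of 121334 junction reads, or 4.63%. Each IMPA library gave them 4.69% to 4.92% (4.76% ± 0.09, SD, n = 5) and each IMA library 4.07% to 4.67% (4.45% ± 0.24, SD, n = 5), so every IMA library lay below every IMPA library. SLTM alone supplied 24.7% of the member reads. Without it they held 3.26% to 3.66% of the IMPA and 3.23% to 3.67% of the IMA reads, and the groups overlapped. The summed normalized level of the members was 0.17 lower in IMA on the log2 scale, and 0.05 lower without SLTM, where the SD of such sums within a group was 0.08. The lower share of the members thus rested on SLTM.

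**Figure D1:**
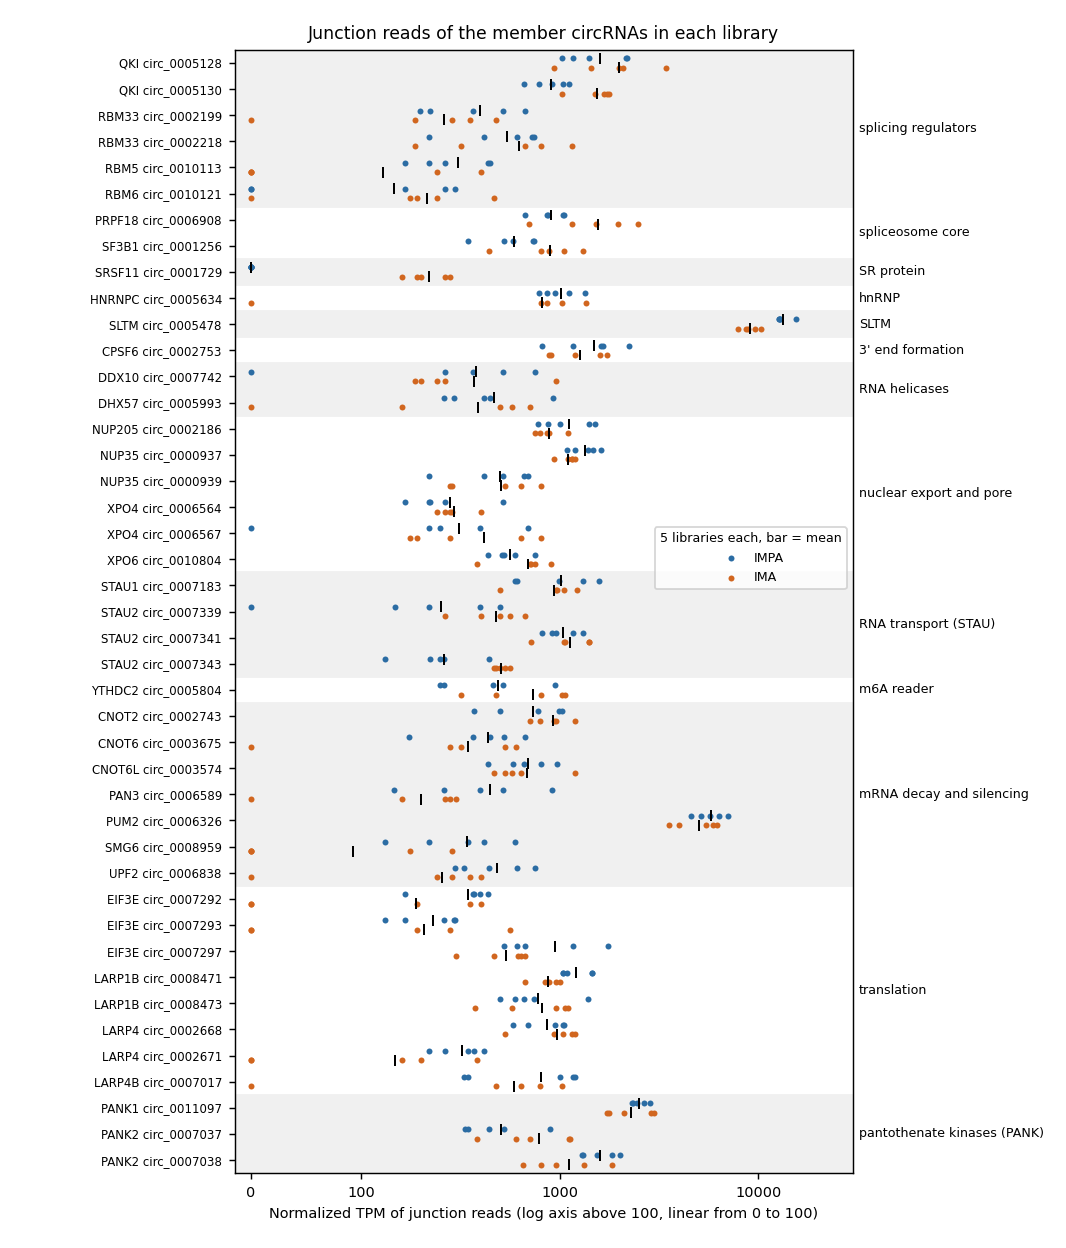
Normalized TPM of junction reads (x axis, logarithmic above 100 and linear from 0 to 100) of 43 member circRNAs in each of the 5 IMPA and 5 IMA libraries, grouped by the role of the host gene; each point is a library and the black bar is the group mean. SLTM and PUM2 stand above all other members, and the groups of most other members overlap.

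Junction levels are given as TPM in the sense of the study, that is reads scaled to 1000000 junction reads with no length term, here also scaled by TMM factors. The test was edgeR's quasi-likelihood test over all circRNAs with reads in at least 5 of 10 libraries, with Benjamini-Hochberg adjustment and the threshold of 0.01 that the study used. At this threshold 12 of 1294 circRNAs changed, a background of 0.927% called, and 1 of the 45 members did. That member was SLTM, which was taken in by its full symbol after the study had called it. Without it 0 of 44 members passed. The member counts that follow include SLTM. At an unadjusted p under 0.05 the background was 13.3% called and 6 of 45 members passed, also 13.3%. Libraries of the groups did not overlap for 4 of 45 members, where the background was 4.56%. The log2 fold change was below 0 for 26 of 45 members (57.8%) and for 55.6% of all circRNAs tested. Its median was -0.09 for the members and -0.07 for all circRNAs. With the summed non-junction reads as library sizes only 20 of 45 members were below 0, and the medians moved together, to 0.11 for the members and 0.12 for all.

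The called member was SLTM circ_0005478, which the study had also called from these libraries. Its junction reads numbered 175, 147, 210, 155 and 196 in IMPA1 to IMPA5 and 101, 85, 120, 87 and 108 in IMA1 to IMA5. After scaling these became 12732 to 15597 normalized TPM in IMPA and 7956 to 10347 in IMA. Every IMA library lay below every IMPA library, and IMPA3 was the highest of all. The level fell from 13390 ± 1237 to 9102 ± 909 normalized TPM (SD, n = 5 each). The log2 fold change was -0.55 (SE 0.11, edgeR adjusted p = 0.0026). The call was lost without IMA1, IMA2 or IMA4 (adjusted p = 0.0116, 0.0126 and 0.0108) and without TMM scaling (log2 fold change -0.47, adjusted p = 0.0119). With the summed non-junction reads as library sizes the log2 fold change of SLTM was -0.31 (adjusted p = 0.186).

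**Figure D2:**
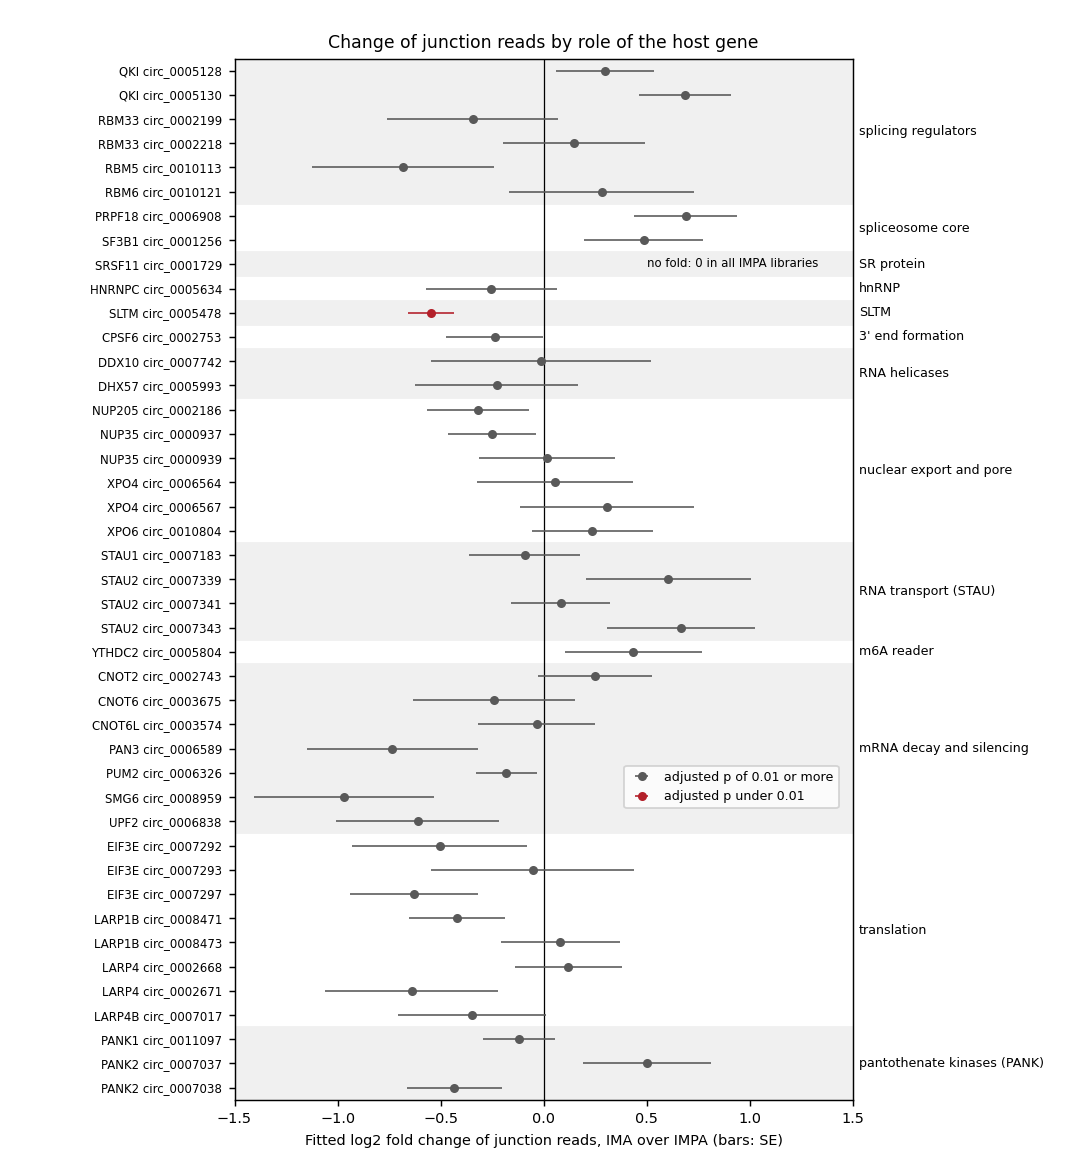
Fitted log2 fold change of junction reads, IMA over IMPA (x axis), with its SE as a bar for 42 member circRNAs, by role of the host gene; SRSF11 has no fold since it was at 0 in all IMPA libraries. SLTM, at -0.55, is the only member past an adjusted p of 0.01, and the bars of most others cross or come near 0.

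Among the splicing factors with reads in both groups, QKI circ_0005130 and PRPF18 had the highest folds. QKI, a STAR-family protein that regulates splicing and circle formation, gave circ_0005130 and circ_0005128. The junction reads of circ_0005130 numbered 9, 12, 15, 11 and 12 in IMPA and 20, 11, 21, 15 and 18 in IMA. After scaling, only IMA2 lay inside the IMPA range. Its level was 904 ± 185 normalized TPM in IMPA and 1540 ± 302 in IMA (log2 fold change 0.69, SE 0.22, edgeR adjusted p = 0.133), which did not pass. The second circle, circ_0005128, was at 1588 ± 549 and 1979 ± 939 normalized TPM (log2 fold change 0.30, adjusted p = 0.612), and its groups overlapped.

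PRPF18, a factor of the second catalytic step of splicing, had 8 to 16 reads a library in IMPA, and in IMA 7 to 26. Its log2 fold change was 0.69 (SE 0.25, edgeR adjusted p = 0.175), and its groups overlapped. SF3B1, the core subunit of the U2 snRNP that binds the branch site, had a log2 fold change of 0.49 (SE 0.29, adjusted p = 0.481). For the 6 circles of the splicing regulators QKI, RBM5, RBM6 and RBM33, 4 folds were above 0 and none passed the test.

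SRSF11, a serine- and arginine-rich splicing protein, was listed in no IMPA library and in every IMA library. Its circ_0001729 had 3, 3, 2, 2 and 2 reads in IMA1 to IMA5. This is at or below a floor of 3 reads, and the edgeR adjusted p was 0.0642, so no fold is given. The circle of HNRNPC, which binds uridine tracts in nascent transcripts, had 10 to 16 reads in each IMPA library and 8 to 17 in IMA2 to IMA5, but was not listed in IMA1.

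The 12 circles that the prefixes assign to mRNA decay and silencing include the 3 of PANK1 and PANK2. Of the 12, 10 had a fold below 0, with a median log2 fold change of -0.34, where 55.6% of all circRNAs were below 0. Without PANK1 and PANK2, a subset chosen after seeing the data, it was 8 of 9 with a median of -0.59. None passed the threshold. The count was 7 of 9 without TMM scaling and 6 of 9 with summed non-junction reads as library sizes. SMG6, the endonuclease of nonsense-mediated decay, had 2 to 8 reads in each IMPA library but 2, 0, 0, 0 and 3 in IMA (log2 fold change -0.97, SE 0.44, edgeR adjusted p = 0.300). For its partner in the pathway, UPF2, the IMPA libraries had 4 to 9 reads and the IMA libraries 0 to 4 (log2 fold change -0.61, adjusted p = 0.509). The circle of the deadenylase subunit PAN3 had a fold of -0.74 (adjusted p = 0.449), on at most 11 reads a library. Of all 45 members, 14 were listed in every IMPA library and missing from at least 1 IMA library, and 4 showed the opposite. These are 31.1% and 8.89% of the members, near the 29.5% and 12.2% of all 1327 circRNAs. Junction depth was lower in IMA, and its part in these zeros was not tested.

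PUM2, a Pumilio protein that represses and destabilises the mRNAs it binds, gave the second most abundant member. Its circ_0006326 had 87, 66, 69, 84 and 70 reads in IMPA and 67, 38, 68, 40 and 65 in IMA. The level was 5763 ± 954 normalized TPM in IMPA and 5027 ± 1184 in IMA (log2 fold change -0.18, SE 0.15, edgeR adjusted p = 0.628), and the groups overlapped. With summed non-junction reads as library sizes the fold was 0.06, so no direction can be given.

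In the translation group of EIF3E, LARP1B, LARP4 and LARP4B, 6 of 8 circles had a fold below 0, or 5 of 8 with summed non-junction reads as library sizes, and none passed. EIF3E, a subunit of the initiation factor that recruits the small ribosomal subunit, gave circ_0007297 with 16, 7, 9, 21 and 8 reads in IMPA and 7, 5, 8, 3 and 7 in IMA (log2 fold change -0.63, SE 0.31, edgeR adjusted p = 0.369). Its 2 other circles had at most 7 reads in any library. LARP1B circ_0008471 had 12 to 22 reads in the IMPA libraries against 7 to 12 in the IMA libraries, and after scaling its groups did not overlap (1039 to 1460 against 671 to 1000 normalized TPM), yet the adjusted p was 0.436.

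The circles of the remaining groups had smaller or less certain folds. The export and pore group, with the nucleoporins NUP35 and NUP205 and the exportins XPO4 and XPO6, ranged from -0.32 to 0.31. CPSF6, a subunit of the cleavage factor that sets poly(A) site choice, was at 1495 ± 537 and 1260 ± 388 normalized TPM (log2 fold change -0.24). The double-stranded RNA-binding proteins STAU1 and STAU2 gave 4 circles with folds of -0.09 to 0.67. STAU2 circ_0007343 had 6, 3, 3, 3 and 2 reads in IMPA and 6, 5, 7, 5 and 5 in IMA, whose scaled levels did not overlap (132 to 438 against 468 to 560 normalized TPM, log2 fold change 0.67, SE 0.36, edgeR adjusted p = 0.416).

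Linear reads at the same splice sites were deeper, and more members changed there. The test covered the 26 members with junction reads in every library. At an adjusted p under 0.01, 10 of 26 changed, where the background was 21.7% called (150 of 690). Of these, 5 rose (background 11.6%) and 5 fell (background 10.1%). Without PANK1 and PANK2, 5 of 23 rose and 4 fell. The rises include both LARP1B circles and a pair of STAU2 circles with a shared start, so the calls are not all separate measurements. At an adjusted p under 0.05 the count was 12 of 26, with a background of 35.7%. The groups did not overlap for 10 of 26 members against 22.2% of all. The median log2 fold change was 0.01 for the members and 0.00 for all circRNAs. At 6 of the 10 calls the adjusted p stayed under 0.01 in every alternative in which they were tested, namely LARP1B circ_0008471, STAU2 circ_0007343, PANK1, SLTM, YTHDC2 and NUP205.

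LARP1B, a La-related protein of the family that binds mRNAs and affects their translation, had the largest rise among the members. Non-junction reads at circ_0008471 were at 591, 557, 583, 519 and 502 normalized CPM in IMPA and 772, 876, 736, 836 and 854 in IMA. All IMA libraries were above all IMPA libraries, and the log2 fold change was 0.55 (SE 0.09, edgeR adjusted p = 3.1e-05). At circ_0008473, which shares its start, the rise was 0.44 (SE 0.11, adjusted p = 0.00266). That call was lost without IMA4, where the adjusted p was 0.0124.

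At the STAU2 splice sites of circ_0007343, non-junction reads were at 463, 481, 578, 539 and 554 normalized CPM in IMPA and 687, 951, 643, 651 and 737 in IMA. The groups did not overlap (log2 fold change 0.47, SE 0.11, edgeR adjusted p = 0.00133). STAU2 circ_0007341 rose by 0.42 (adjusted p = 0.00292) on partly the same reads, and this call was lost without IMPA1 or IMA2, with an adjusted p of up to 0.0132. EIF3E circ_0007297 rose by 0.16 (SE 0.05, adjusted p = 0.00862), from 12431 to 13658 normalized CPM in IMPA to 14317 to 14864 in IMA. There the call was lost without TMM scaling (0.10, adjusted p = 0.108) and when any of 9 of the 10 libraries was left out.

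**Figure D3:**
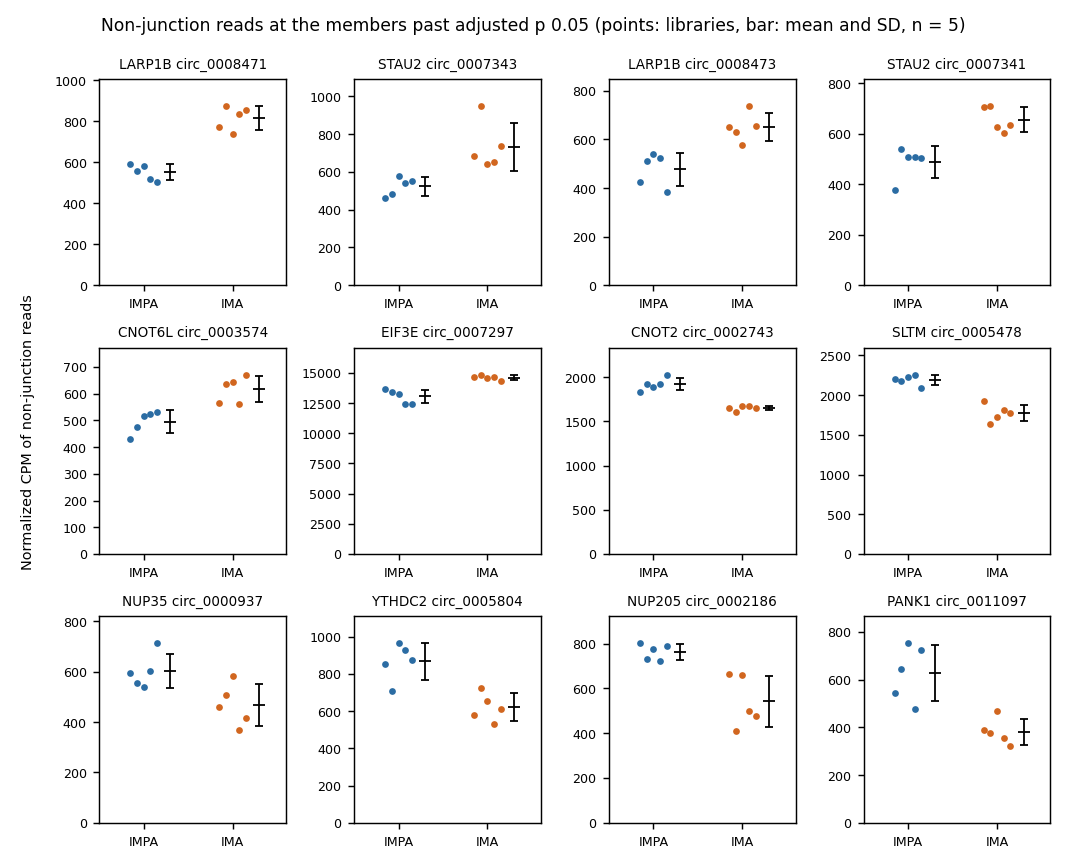
Normalized CPM of non-junction reads (y axis, from 0) in each of the 5 IMPA and 5 IMA libraries at the 12 members past an adjusted p of 0.05, ordered from the largest rise (LARP1B circ_0008471) to the largest fall (PANK1); points are libraries and bars the mean and SD. The groups do not overlap in 10 of the 12 panels, and at NUP35 and YTHDC2 a single IMA library lies inside the IMPA range.

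The largest fall was at PANK1. Its non-junction reads were at 544, 644, 752, 475 and 725 normalized CPM in IMPA and 389, 374, 467, 353 and 321 in IMA (log2 fold change -0.70, SE 0.13, edgeR adjusted p = 0.000105), with the highest IMA library just under the lowest IMPA library. YTHDC2, an m6A-binding helicase, fell from 710 to 964 normalized CPM in IMPA to 530 to 726 in IMA (log2 fold change -0.47, adjusted p = 0.000543). Here IMA2 lay inside the IMPA range. NUP205, a scaffold protein of the inner ring of the nuclear pore, fell from 764 ± 35.1 to 542 ± 115 (log2 fold change -0.47, adjusted p = 0.00133), without overlap. NUP35, of the same ring, had a log2 fold change of -0.35 at circ_0000937 (adjusted p = 0.0211), past 0.05 only.

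Non-junction reads of SLTM were at 2198, 2179, 2232, 2260 and 2091 normalized CPM in IMPA and 1926, 1640, 1723, 1808 and 1781 in IMA. The groups did not overlap, and the log2 fold change was -0.30 (SE 0.06, edgeR adjusted p = 0.000477). CNOT2, a subunit of the CCR4-NOT deadenylase, fell by 0.22 on the log2 scale (adjusted p = 0.00822). This call was lost when any 1 library was left out and in DESeq2 (adjusted p = 0.0173). CNOT6L, a catalytic subunit of the same complex, was 0.31 higher (adjusted p = 0.0189), past 0.05 only. The linear reads of QKI, SF3B1, PUM2 and CPSF6 had log2 fold changes between -0.13 and 0.06 and did not pass.

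**Figure D4:**
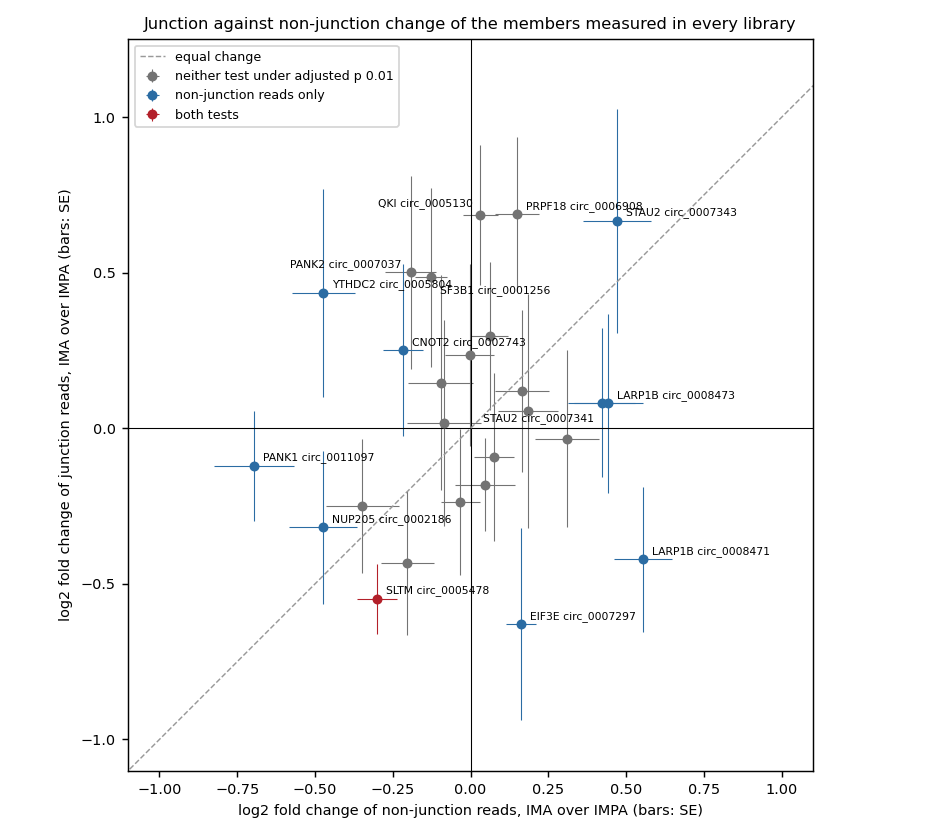
Log2 fold change of junction reads (y axis) against that of non-junction reads (x axis), IMA over IMPA, with SE bars, for the 26 member circRNAs with junction reads in every library; the dashed line marks equal change. SLTM alone is past an adjusted p of 0.01 in both, LARP1B circ_0008471 lies farthest below the line and YTHDC2 farthest above it.

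Whether circles and linear reads changed unequally was tested by the interaction of read kind and group in one edgeR model, with the library as a block. None of the 26 members passed an adjusted p of 0.01, where the background was 0.871% called (6 of 689). DESeq2 called none of the 689 circRNAs, so it says nothing about the members. At an unadjusted p under 0.05, 8 of 26 members passed against 17.4% of all. At an adjusted p under 0.05 it was 1 of 26 (background 2.47%). The median interaction was 0.08 for the members and 0.02 for all circRNAs.

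That member was LARP1B circ_0008471. Its junction reads were 0.42 lower and its non-junction reads 0.55 higher on the log2 scale, and the interaction was -1.02 (SE 0.28, edgeR adjusted p = 0.0227). The circular share, which is the percentage of the splice-site reads that came from circles with each junction read counted for both of its ends, was 24.4%, 19.0%, 18.8%, 19.8% and 25.9% in IMPA and 15.5%, 13.3%, 16.0%, 16.1% and 10.7% in IMA. The groups did not overlap (21.6% ± 3.30 and 14.3% ± 2.33, SD, n = 5 each). Without IMPA1, IMPA4, IMPA5, IMA2 or IMA5 the adjusted p was 0.0528 to 0.0952, and in DESeq2 it was 0.536. The other LARP1B circle, circ_0008473, had shares of 16.7% ± 5.51 and 16.0% ± 5.40 and an interaction of -0.33 (adjusted p = 0.616). The difference between the 2 circles was not tested.

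QKI circ_0005130 had an interaction of 0.75 (SE 0.26, edgeR adjusted p = 0.097). Its circular share was 1.08%, 1.63%, 1.61%, 1.41% and 1.03% in IMPA and 3.31%, 1.95%, 2.83%, 2.68% and 2.96% in IMA. The shares did not overlap for 3 of 26 members, against 5.08% of all circRNAs, and this circle was among them. At PANK1 the share was 33.9% ± 5.99 in IMPA and 48.0% ± 5.67 in IMA, likewise without overlap (interaction 0.55, adjusted p = 0.142). YTHDC2 had the largest positive interaction, 0.997 (SE 0.35, adjusted p = 0.097), on 3 to 13 junction reads a library. The shares of SF3B1, PRPF18 and PANK2 circ_0007037 were higher on average in IMA and that of EIF3E circ_0007297 lower, all with overlapping groups and adjusted p-values above 0.05. Without TMM scaling the interactions of QKI circ_0005130 (adjusted p = 0.0323), YTHDC2 (0.0433) and PANK1 (0.0452) passed 0.05 beside that of LARP1B circ_0008471 (0.0493). This setting moved the median interaction of all circRNAs from 0.02 to 0.15 and raised the background at 0.05 to 3.92%. YTHDC2 also passed 0.05 when IMPA1 or IMA3 was left out.

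**Figure D5:**
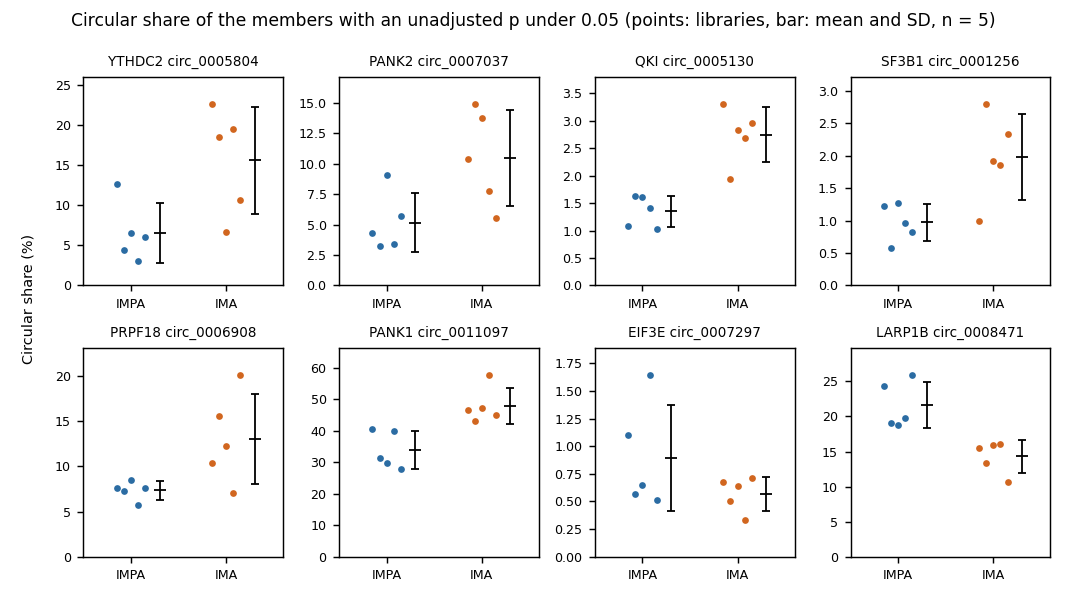
Circular share in percent (y axis, from 0, scaled per panel) in each of the 5 IMPA and 5 IMA libraries for the 8 members with an unadjusted interaction p under 0.05; points are libraries and bars the mean and SD. LARP1B circ_0008471, QKI circ_0005130 and PANK1 are the 3 panels without overlap.

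The circular share ranged widely among the members. In IMPA it was highest at PUM2 (44.0% ± 5.02 in IMPA and 44.9% ± 6.92 in IMA) and SLTM (43.3% ± 2.63 and 44.3% ± 1.66), while in IMA the mean of PANK1 lay above both. For SLTM, junction and non-junction reads both fell, and the interaction was -0.25 (SE 0.14, edgeR adjusted p = 0.338). Among the 26 members listed in every library, the lowest shares were those of EIF3E circ_0007297 (0.89% and 0.57%) and SF3B1 (0.97% and 1.98%). The mean share was higher in IMA for 20 of 26 members (76.9%), beside 73.9% of all 689 circRNAs. The shares are taken from unscaled counts, while the interaction uses scaled ones, so their directions can differ. At SLTM and PUM2 the mean share was higher in IMA but the interaction was below 0.

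The predicted pairs with miRNAs, as deposited, named at least 1 miRNA for every member. The median was 10 miRNA names a circRNA, against 9 for all, and the highest was 23 at STAU1. In all 250 miRNAs were paired with a member. The most frequent was chi-miR-1248-5p, paired with 8 members (17.8%) of DHX57, LARP4B, QKI, RBM33, RBM5, SLTM and STAU2 and with 5.88% of all circRNAs. It was followed by chi-miR-103-5p with 6 members (13.3%, against 10.2% of all) and chi-miR-320-3p with 6 (13.3%, against 3.99%). SLTM was paired with 10 names, which include chi-miR-27a-3p, chi-miR-27b-3p, chi-miR-130a-5p and chi-miR-378-5p. These are predictions from sequence, and no miRNA level was used.

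Other RNA processing genes that the prefixes leave out, such as AGO2, DCP2, PABPC1 and ZNF638, gave 28 circRNAs of 20 genes. None passed an adjusted p of 0.01 for junction reads in edgeR, DESeq2 or limma voom, and 1 had an unadjusted p under 0.05. This was PABPC1, the cytoplasmic poly(A)-binding protein, with 2581 ± 693 normalized TPM in IMPA and 1503 ± 357 in IMA (log2 fold change -0.73, SE 0.20, edgeR adjusted p = 0.0501). For non-junction reads 4 of 14 passed, beside the background of 21.7% called. UBAP2 rose by 0.81 (adjusted p = 0.0002), and AGO2, the slicing Argonaute (-0.46), PABPC1 (-0.30) and SKIV2L2, a helicase of the nuclear exosome (-0.22), fell. The median junction log2 fold change of this list was -0.05, beside -0.07 for all circRNAs.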

How the data were processed

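Per the study's methods, rRNA-depleted total RNA was sequenced, and circRNAs were kept where find_circ, with a minimum read number, and CIRI2 gave the same position; per the labels, SAMtools was also used. Positions refer to versioned RefSeq chromosome sequences; the assembly name and annotation were not given in the sources used here. The authors deposited junction read counts per circRNA and library, the same counts as CPM (counts over the library's junction reads, times 1000000, called TPM in the study), and a table of junction and non-junction read counts with positions, exons and host genes. For each circRNA the count table and the position table gave the same junction counts. The position table also names 10 other samples, which were not used. The authors' miRNA pairs were taken as deposited, and 3 repeated circRNA rows were merged.

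Counts were fitted over all circRNAs with edgeR 4.0.16 in R 4.3.3 (TMM, quasi-likelihood test, prior count 2, no covariate). DESeq2 1.42.0 and limma voom 3.58.1 were alternatives, as were other scalings, filters and thresholds, and leaving out each library. The prior count draws the fitted folds of circRNAs with few reads toward 0. Each SE given is the absolute log2 fold change over the square root of the F statistic of the edgeR test. Named circRNAs were SLTM, members past an adjusted p of 0.05 in any test, those with the smallest p-values, highest levels, most circles per gene and extreme circular shares (25 in all); other members named beside them were chosen after their values were seen. Of the 45 members, 2 are counted but not reported one by one or drawn. The members and lists were chosen with earlier results of these data known.

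Data were simulated with the same assumed spread between libraries for every circRNA of a read kind, not estimated from these data. With a log2 fold of 1, the junction test recovered 19.0% of 200 changed circRNAs of 1294 (56.4% of those with a mean count of at least 10), and with a fold of 2, 75.0%. The non-junction test recovered 98.0% with a fold of 1. Members had a median of 7.5 reads a library, and 15 had a mean of at least 10.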

Additional observations from a re-analysis of the deposited data

Results flagged for a closer look

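In 8 of 129 groups of 5 values, 1 library lay far from the other 4, measured as its gap to the nearest other library over the range of the group. Chance gives about 1 in 20. For junction levels these were SLTM in IMPA3 (0.929, at 15597 normalized TPM against 12732 to 12936), CNOT6L in IMA4 (0.766), LARP1B circ_0008473 in IMPA2 (0.727) and EIF3E circ_0007292 in IMPA4 (0.744). For non-junction levels they were STAU2 circ_0007341 in IMPA1 (0.788, at 377 normalized CPM against 506 to 541) and CNOT2 in IMA2 (0.769). For the circular share they were CNOT6L in IMA4 (0.832, at 25.5% against 10.5% to 13.0%) and PANK1 in IMA4 (0.711, at 57.7% against 43.2% to 47.4%). IMA4, the library with the fewest junction reads, held 3 of the 8.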

How the results depend on the processing

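The count of members called for junction reads went from 1 to 0 without TMM scaling and with summed non-junction reads as library sizes (SLTM -0.47 and -0.31, adjusted p = 0.0119 and 0.186), and was 0 to 1 when single libraries were left out (SLTM -0.59 to -0.50). It stayed at 1 with DESeq2 size factors, DESeq2, limma voom and every low-count filter. The non-junction count of 10 became 5 among the 14 members with a mean junction count of at least 10, and 7 to 9 when single libraries were left out. The interaction count went from 0 to 1 at an adjusted p of 0.05. The groups share replicate numbers. Deviations of same-numbered libraries correlated at -0.05 to 0.012 for junction and -0.178 to 0.163 for non-junction reads. These values show no clear pairing. They cannot decide whether the numbers pair the libraries, since junction counts were low and the goat behind each library was not given. With the replicate block, 1 member was called for junction and 9 for non-junction reads, CNOT2 being lost (adjusted p = 0.0102). A filter of reads in at least 5 libraries could not be run for non-junction reads and the interaction, since these are missing where a circRNA was not listed.

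Without TMM scaling the non-junction reads of NUP35 circ_0000937 (-0.41, adjusted p = 0.00756) and SF3B1 (-0.19, adjusted p = 0.00446) passed and EIF3E circ_0007297 did not. Signs turned at folds near 0. Without TMM scaling CNOT6L junction reads were at 0.031, and the non-junction reads of QKI circ_0005130, QKI circ_0005128 and PUM2 at -0.035, -0.0046 and -0.017. With summed non-junction reads as library sizes, junction reads of CNOT6L were at 0.17, PANK1 at 0.11, PUM2 at 0.059 and EIF3E circ_0007293 at 0.078. Leaving out single libraries gave -0.0028 to 0.22 for STAU2 circ_0007341, -0.25 to 0.069 for CNOT6L, -0.015 to 0.31 for LARP1B circ_0008473 and -0.46 to 0.15 for EIF3E circ_0007293 in junction reads, -0.0011 to 0.077 for QKI circ_0005130, -0.023 to 0.095 for PUM2 and -0.067 to 0.0056 for CPSF6 in non-junction reads, and -0.017 to 0.46 for the interaction of QKI circ_0005128. The log2 fold change of the members together was -0.09 as a median, -0.17 weighted by reads and, as a median, -0.07 without PANK1 and PANK2, an alternative chosen after seeing the data. In the simulation, with its assumed spread, most junction changes of 1 on the log2 scale were not called.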
